A study of Drosophila melanogaster with 6 samples.

Results

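The 10 genes described here mark or direct the stem and progenitor cells of the adult fly intestine: Dl, N, spdo, esg, klu, zfh2, Sox21a, Sox100B, mira and hdc. They were taken by exact symbol, with upper and lower case kept apart, from a table of 15010 genes, and all 10 were found. The table gives TPM (transcript abundance, that is reads divided by gene length, as a part of a fixed total) for 6 libraries of polyadenylated RNA from Drosophila melanogaster labelled as intestine. The 3 libraries called InR-DN here come from adult progeny of MTD-GAL4/InR-DN mothers, whose germline expressed a dominant-negative insulin receptor under a germline GAL4 driver. The 3 control libraries come from progeny of MTD-GAL4/+ mothers, which carried the driver alone. All mothers were mated to Oregon R, a wild-type strain, and the comparison asks whether metabolic stress of the mother is seen in the gut of her offspring. Offspring of either group could inherit the driver, and those of the InR-DN group the transgene too, so a maternal effect and an effect of inheritance cannot be told apart. The labels used here do not state age, sex or the number of animals per library, nor that libraries of a group came from separate crosses. The p-values below therefore measure only the spread between these libraries, which may be technical.

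The midgut of the adult fly is renewed by intestinal stem cells. A stem cell divides to give another stem cell and an enteroblast, a committed progenitor that matures into an absorptive enterocyte. Other stem cell daughters become hormone-secreting enteroendocrine cells. Signalling from the ligand Delta on the stem cell to the receptor Notch on its daughter drives the enterocyte path. The Snail-family repressor Escargot keeps both stem cells and enteroblasts undifferentiated. None of the 10 genes is restricted to the gut: Delta and Notch also act between germline and follicle cells of the ovary, and mira, klu, spdo and esg act in the embryonic or larval nervous system.

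The libraries held transcripts of the gut and of other body parts. The 10 enterocyte genes summed to 12546 to 18101 TPM in InR-DN libraries, against 17352 to 18497 TPM in controls, and the 11 enteroendocrine genes to 196 to 249 TPM against 204 to 240 TPM. The 12 germline genes summed to 1552 to 1813 TPM in InR-DN libraries, against 1569 to 1698 TPM in controls, and the 12 photoreceptor genes to 3898 to 5358 TPM against 4447 to 4951 TPM. Of these lists, only the germline one had a gene below 1 TPM in every library (bgcn). Whole reads recovered from the TPM values summed to 34097609 to 45376288 per library. In bulk RNA of this kind, fewer cells of a type and less RNA per cell cannot be told apart, and the values describe whole libraries, not progenitor cells alone.

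No progenitor gene passed the test between InR-DN and control libraries. The test was limma on log2(TPM + 1) over the 10816 genes that reached 1 TPM in 3 or more libraries, with Benjamini-Hochberg adjustment at 0.05. Of the 10 progenitor genes, 9 entered it and spdo did not reach the filter. None of the 9 was called, and 0% of all tested genes were. None of the 9 had an unadjusted p under 0.05 in this fit, against 341 of all tested genes, or 3.15%. limma voom on the recovered reads called 1 gene of the whole table, CG31219, which is no progenitor gene and was chosen after its values were seen. The mean on the log2(TPM + 1) scale was lower in InR-DN libraries for 7 of the 9 progenitor genes and higher for 2, whereas it was lower for 45.4% of all tested genes. The median log2 fold change of the 9 was -0.13, against 0.01 over all tested genes, and it was -0.07 without control replicate 1.

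**Figure D1:**
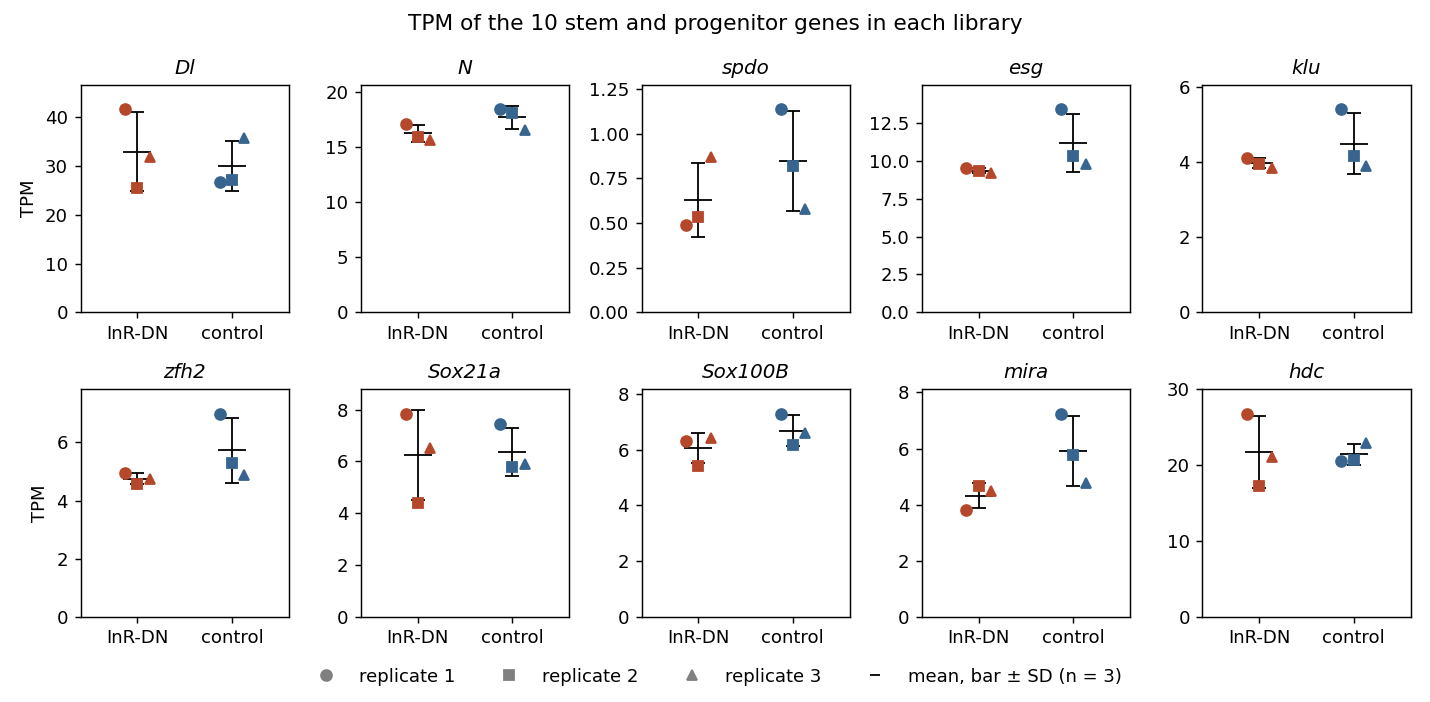
TPM of each progenitor gene (vertical axes from 0) in the 3 InR-DN and 3 control libraries, 1 symbol per replicate, with group means and SD bars. For esg and mira every InR-DN library lies below every control library, and control replicate 1 is the highest library for 7 of the 10 genes.

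Dl encodes Delta, the Notch ligand that marks the stem cell (FBgn0000463, named Delta in the BDGP6.54 annotation; arm 3R, 19302731 to 19326217, minus strand). It was the most abundant of the 10 genes, at 41.6, 25.4 and 31.9 TPM in InR-DN replicates 1 to 3, against 26.8, 27.2 and 35.9 TPM in control replicates 1 to 3. The InR-DN libraries enclosed the control range, so the lowest and the highest of the 6 libraries were both InR-DN ones. The means were 33.0 ± 8.16 TPM in InR-DN libraries and 29.9 ± 5.13 TPM in controls (SD, n = 3 each). The log2 fold change was 0.12 with a 95% interval of -0.35 to 0.59 (limma adjusted p = 1.00), and -0.06 without InR-DN replicate 1. Counting error was small beside it, since Dl rested on 2626 to 4388 reads per library.

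N encodes Notch, the receptor on the daughter cell (FBgn0004647; X chromosome, 3134870 to 3172221, plus strand). N had 17.1, 15.98 and 15.7 TPM in InR-DN replicates 1 to 3, against 18.5, 18.1 and 16.5 TPM in control replicates 1 to 3. Only InR-DN replicate 1 reached into the range of the controls, above control replicate 3. N was the steadiest of the 10 genes, with a coefficient of variation of 6.65% over the 6 libraries. Between the groups the log2 fold change was -0.12 with a 95% interval of -0.32 to 0.09 (limma adjusted p = 1.00).

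spdo encodes Sanpodo, a membrane protein that works with Notch in asymmetric division (FBgn0260440; arm 3R, 30476684 to 30478849, plus strand). It was the least abundant gene, at 0.486, 0.535 and 0.868 TPM in InR-DN replicates 1 to 3, against 1.14, 0.821 and 0.579 TPM in control replicates 1 to 3. These values stand for 18 to 44 reads per library, with a counting error of 23.6% at the lowest. The groups overlapped, and an exact two-sided permutation test of the means gave p = 0.4, where 0.1 is the smallest value that 3 against 3 libraries allow.

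esg encodes Escargot, the transcription factor shared by stem cells and enteroblasts (FBgn0287768; arm 2L, 15333866 to 15336138, plus strand, a gene of 1 exon). It lay at 9.50, 9.35 and 9.17 TPM in InR-DN replicates 1 to 3, against 13.4, 10.3 and 9.79 TPM in control replicates 1 to 3. The InR-DN libraries were nearly level and all below the controls, which spread upwards from just above them to control replicate 1. The means were 9.34 ± 0.167 TPM in InR-DN libraries and 11.2 ± 1.94 TPM in controls (SD, n = 3 each). The log2 fold change was -0.22, with a 95% interval of -0.53 to 0.08 (limma p = 0.129, adjusted p = 1.00), and the exact permutation p was 0.1. Without control replicate 1 the log2 fold change was -0.10. The spread among InR-DN libraries was smaller than the counting error of 5.21% that 368 reads, the lowest count of esg, carry. So was the gap between the highest InR-DN library and the lowest control.

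klu encodes the zinc finger repressor Klumpfuss, a gene of enteroblasts that keeps them from the enteroendocrine fate (FBgn0013469; arm 3L, 10981171 to 11009188, minus strand). It lay at 4.11, 3.94 and 3.84 TPM in InR-DN replicates 1 to 3, against 5.397, 4.17 and 3.89 TPM in control replicates 1 to 3. All but control replicate 1 lay within a narrow band, in which the groups overlapped. For klu the log2 fold change was -0.13 with a 95% interval of -0.45 to 0.18 (limma adjusted p = 1.00), and -0.02 without control replicate 1.

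zfh2 encodes a zinc finger homeodomain factor found in gut progenitors (FBgn0004607; chromosome 4, 501810 to 540874, plus strand). It lay at 4.95, 4.57 and 4.73 TPM in InR-DN replicates 1 to 3, against 6.999, 5.29 and 4.89 TPM in control replicates 1 to 3. Control replicate 3 lay inside the InR-DN range and control replicate 1 far above it. The log2 fold change was -0.21 with a 95% interval of -0.55 to 0.12 (limma adjusted p = 1.00), and -0.08 without control replicate 1. Exons of zfh2 share 2325 bases with Thd1 on the opposite strand, which lay at 28.7 to 35.9 TPM. The labels do not say if the read counting was stranded, so zfh2 and Thd1 reads from that stretch cannot be told apart. hdc likewise shares 256 exonic bases with CR46114 on the other strand, a gene with no row in the table.

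The 2 Sox factors act in the step from enteroblast to enterocyte, Sox21a also in stem cell division. Sox21a (FBgn0036411; arm 3L, 14103481 to 14108118, minus strand) had 7.85, 4.3995 and 6.50 TPM in InR-DN replicates 1 to 3, against 7.43, 5.78 and 5.89 TPM in control replicates 1 to 3. Its InR-DN libraries enclosed the control range on both sides. Sox21a had a log2 fold change of -0.05 with a 95% interval of -0.52 to 0.43 (limma adjusted p = 1.00). Sox100B (FBgn0024288; arm 3R, 31065253 to 31083407, plus strand) had 6.33, 5.43 and 6.41 TPM in InR-DN replicates 1 to 3, against 7.31, 6.17 and 6.61 TPM in control replicates 1 to 3. Only InR-DN replicate 2 fell below all controls. Sox100B had a log2 fold change of -0.13 with a 95% interval of -0.40 to 0.15 (limma adjusted p = 1.00), and -0.06 without InR-DN replicate 2 or -0.07 without control replicate 1.

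mira encodes Miranda, an adaptor that carries fate determinants to one side of a dividing stem cell (FBgn0021776; arm 3R, 19931799 to 19935120, minus strand). It lay at 3.80, 4.67 and 4.47 TPM in InR-DN replicates 1 to 3, against 7.25, 5.75 and 4.75 TPM in control replicates 1 to 3. The groups did not overlap, though the highest InR-DN library and the lowest control differed by less than the counting error of 6.68% at 224 reads. The means were 4.31 ± 0.452 TPM in InR-DN libraries and 5.92 ± 1.26 TPM in controls (SD, n = 3 each). The log2 fold change was -0.37, the largest in size among the 9 tested genes, with a 95% interval of -0.75 to 0.01 (limma p = 0.0546, adjusted p = 1.00), and the exact permutation p was 0.1. Without control replicate 1 the log2 fold change was -0.23. Together, esg and mira make 2 of 9 tested progenitor genes that were lower in InR-DN libraries without overlap, against 3.78% of all tested genes.

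hdc encodes Headcase, a cytoplasmic protein of imaginal and adult progenitor cells (FBgn0010113, named heca in BDGP6.54; arm 3R, 30277932 to 30372382, plus strand). It lay at 26.8, 17.3 and 21.1 TPM in InR-DN replicates 1 to 3, against 20.6, 20.7 and 23.0 TPM in control replicates 1 to 3. The InR-DN libraries again enclosed the control range, as for Dl and Sox21a. The means were 21.8 ± 4.79 TPM in InR-DN libraries and 21.4 ± 1.35 TPM in controls (SD, n = 3 each). This gave a log2 fold change of 0.00 with a 95% interval of -0.37 to 0.38 (limma adjusted p = 1.00).

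**Figure D2:**
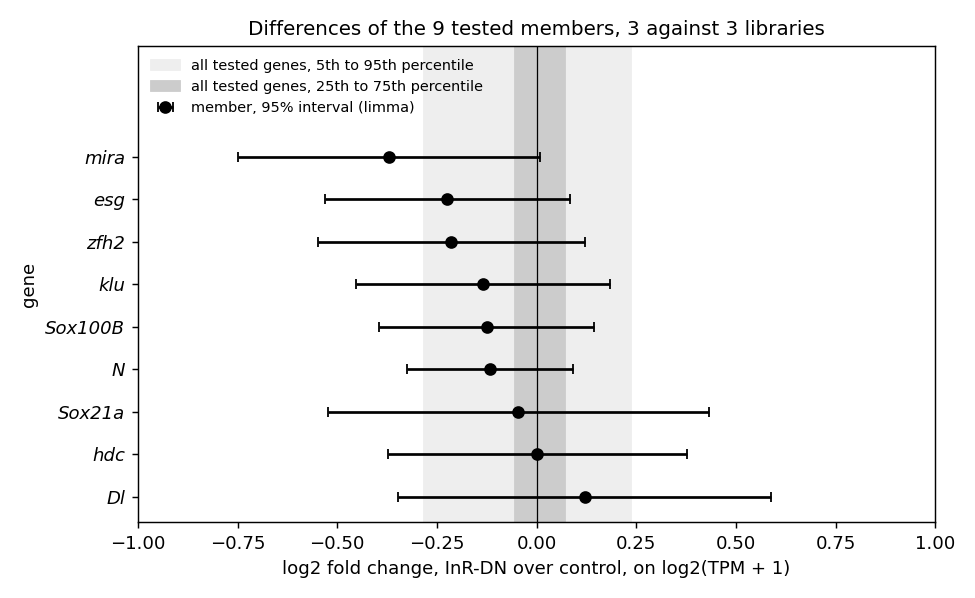
Log2 fold change of InR-DN over control libraries on the log2(TPM + 1) scale for the 9 tested progenitor genes, with 95% intervals from limma and bands for all 10816 tested genes. Every interval includes 0, and mira at -0.37 is the only gene whose estimate lies outside the 5th to 95th percentile of all genes (-0.28 to 0.24). By definition that band leaves out 5% of all tested genes at each end.

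By level, the genes fell into a clear order at both ends and not in the middle. Over the 6 libraries Dl averaged 31.5 TPM, hdc 21.6 TPM, N 17.0 TPM and esg 10.3 TPM, and this order held within each of the 6 libraries. The ranges of Dl and hdc overlapped, as did those of hdc and N, while N lay above esg in every pair of libraries. Below esg, Sox100B averaged 6.38 TPM, Sox21a 6.31 TPM, zfh2 5.24 TPM, mira 5.12 TPM and klu 4.22 TPM, with overlapping ranges between neighbours. Sox100B exceeded Sox21a in 3 of 6 libraries, and zfh2 exceeded mira in 3 of 6. The gap from klu to spdo was the widest, at 5.73-fold.

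Among themselves the 10 genes showed 2 patterns across libraries, neither of which followed the maternal genotype alone. In the first, control replicate 1 was the highest library, which held for esg, zfh2, klu, mira, N and Sox100B, and also for spdo below the filter. Among tested genes this made 6 of 9, against 12.9% of all tested genes. In the second, InR-DN replicate 1 was the highest and InR-DN replicate 2 the lowest library, which held for Dl, hdc and Sox21a. This held for 3 of 9 tested genes, near the 27.1% of all tested genes with the same pattern. The split was not clean, since Sox21a also lay above its own mean in control replicate 1, by 0.224 in log2(TPM + 1). Dl and hdc lay below their means there (-0.202 and -0.053). The ratio of Dl to esg, both markers of the stem cell, was 4.38, 2.72 and 3.48 in InR-DN replicates 1 to 3, against 2.00, 2.63 and 3.66 in control replicates 1 to 3.

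**Figure D3:**
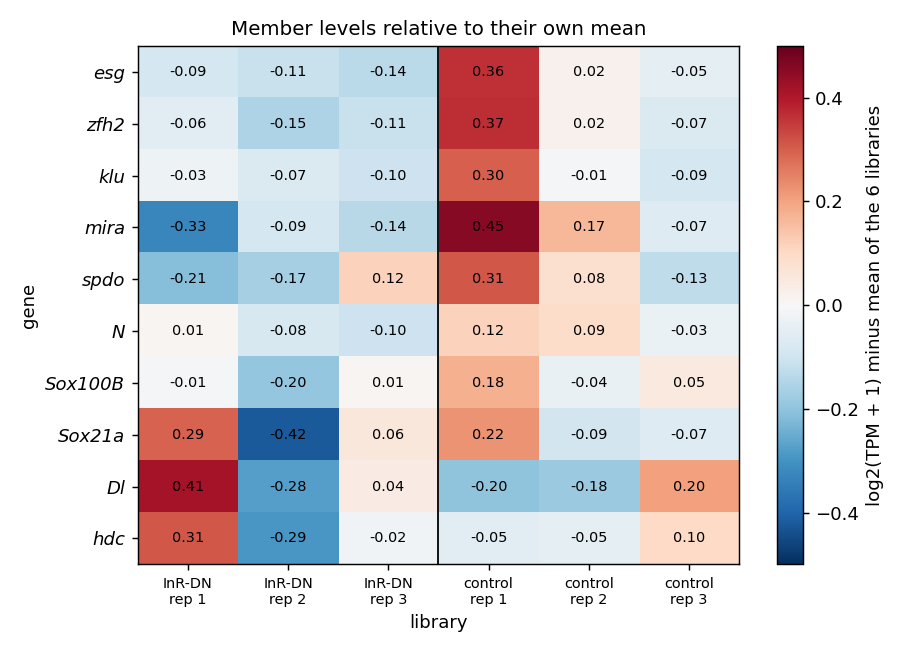
Level of each progenitor gene in each library (columns, InR-DN left of control) as log2(TPM + 1) minus the mean of the gene over the 6 libraries, with red above and blue below that mean. esg, zfh2, klu, mira and spdo stand out in control replicate 1 (0.30 to 0.45), and Dl, hdc and Sox21a in InR-DN replicate 1 (0.29 to 0.415).

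Ratios among esg, zfh2 and klu varied least. Of the 45 pairs of progenitor genes, the ratio esg to zfh2 varied least, at 1.92, 2.05 and 1.94 in InR-DN replicates 1 to 3, against 1.91, 1.95 and 2.00 in control replicates 1 to 3. Its coefficient of variation of 2.67% was below the counting error, which reached 6.07%. esg to klu came next at 3.27% and then zfh2 to klu at 3.99%, both also below their counting errors of up to 7.61% and 6.36%. esg to klu was 2.31, 2.37 and 2.39 in InR-DN replicates 1 to 3, against 2.48, 2.48 and 2.52 in control replicates 1 to 3. zfh2 to klu was 1.21, 1.16 and 1.23 in InR-DN replicates 1 to 3, against 1.30, 1.27 and 1.26 in control replicates 1 to 3. Both of these ratios were lower in InR-DN libraries without overlap, and so was mira to klu, while esg to zfh2 overlapped. mira to klu was 0.926, 1.18 and 1.16 in InR-DN replicates 1 to 3, against 1.34, 1.38 and 1.22 in control replicates 1 to 3. All of these have klu as the denominator, and no other of the 45 pairs separated the groups. Even full separation of 3 against 3 libraries gives no exact two-sided permutation p below 0.1. Some separated pairs among 45 are therefore not unusual, and pairs that share a gene are not independent. The share of separated ratios over all gene pairs was not computed. In each, the nearest InR-DN and control libraries differed by less than the largest counting error, which was 8.56% for mira to klu. By coefficient of variation Dl to hdc came next at 8.01%, above its counting error of at most 2.35%, while Dl to esg varied by 27.2%. Over the 6 libraries, zfh2 had the profile most like that of esg among all other tested genes, by the Euclidean distance between log2(TPM + 1) profiles centred on their means (0.0631). CG12880 (0.0746) and CG10659 (0.107) came next, and klu was number 6 (0.115). Dl, at a distance of 0.861, was number 9814. These 6 libraries share their preparation and, in part, the height of control replicate 1, and the likeness is a description of them.

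**Figure D4:**
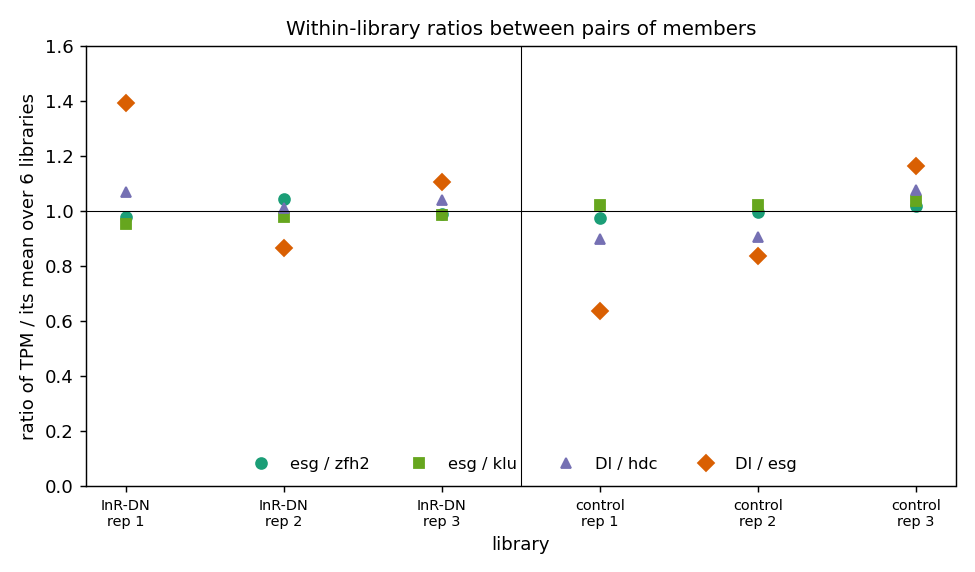
Ratio of TPM between pairs of progenitor genes within each library, divided by the mean ratio over the 6 libraries (axis from 0). esg over zfh2 and esg over klu stay close to 1, with coefficients of variation of 2.67% and 3.27%, while Dl over esg varies by 27.2%.

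Other genes of the Notch pathway did not pass the test either. Of 20 core pathway genes 19 were tested, with 10 positive and 9 negative log2 fold changes, none called and a median of 0.02 (-0.06 without InR-DN replicate 1). Su(dx), a ubiquitin ligase that turns Notch over, averaged 78.6 ± 6.30 TPM in InR-DN libraries and 86.4 ± 3.27 TPM in controls (SD, n = 3 each). fng, the glycosyltransferase Fringe that tunes Notch to its ligands, averaged 14.5 ± 1.64 TPM in InR-DN libraries and 16.1 ± 1.00 TPM in controls. The co-repressor gene gro, the most abundant of the list, averaged 92.0 ± 15.7 TPM in InR-DN libraries and 88.5 ± 7.97 TPM in controls. The pattern of Dl, highest in InR-DN replicate 1 and lowest in InR-DN replicate 2, was shared by 13 of the 19. Among all tested genes 27.1% had it.

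The transcriptional targets of Notch in the E(spl) and Bearded complexes stood out in 1 library. Of 15 such genes in the table, 5 passed the filter, with 1 positive and 4 negative log2 fold changes and none called. Their median log2 fold change was -0.40, and -0.01 without control replicate 1. Their summed level was 46.5, 53.0 and 54.6 TPM in InR-DN replicates 1 to 3, against 93.9, 48.0 and 49.6 TPM in control replicates 1 to 3. Control replicate 1 was the highest library for 13 of the 15 genes, and for 4 of the 5 past the filter, against 12.9% of all tested genes. Tom, a Bearded-family gene, had 0.234, 0.139 and 2.35 TPM in InR-DN replicates 1 to 3, against 14.3, 0.356 and 1.39 TPM in control replicates 1 to 3. E(spl)malpha-BFM had 4.84, 5.09 and 5.78 TPM in InR-DN replicates 1 to 3, against 10.6, 5.77 and 5.997 TPM in control replicates 1 to 3. The most abundant genes of the list departed less: E(spl)m3-HLH averaged 25.2 ± 3.48 TPM in InR-DN libraries and 24.1 ± 3.47 TPM in controls, and E(spl)mbeta-HLH averaged 15.7 ± 1.93 TPM in InR-DN libraries and 17.0 ± 2.24 TPM in controls.

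Most neuroblast markers were also at their highest in control replicate 1. The 6 neuroblast genes, which mark neural stem cells, summed to 7.53, 8.01 and 9.15 TPM in InR-DN replicates 1 to 3, against 15.4, 8.37 and 9.58 TPM in control replicates 1 to 3. Control replicate 1 was the highest for 5 of the 6, and wor and tll lay below 1 TPM in every library. It was the highest for the 3 that were tested, against 12.9% of all tested genes. A list of 12 genes of embryonic segmentation and gastrulation, chosen after values were seen, summed to 19.97, 19.4 and 23.4 TPM in InR-DN replicates 1 to 3, against 33.0, 21.5 and 21.7 TPM in control replicates 1 to 3. Of these 12 genes, eve, ftz, run, prd and twi lay below 1 TPM in every library. In control replicate 1 the embryonic list had 10 of its 12 genes at their highest. Since the list was chosen with the values known, that count is a description only. The photoreceptor and germline sums there lay within those of the other libraries, and the nervous system sum of 173 TPM lay just above the 156 to 169 TPM of the others. The part of neuroblast or embryonic RNA in the levels of esg, zfh2, klu and mira was not tested.

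**Figure D5:**
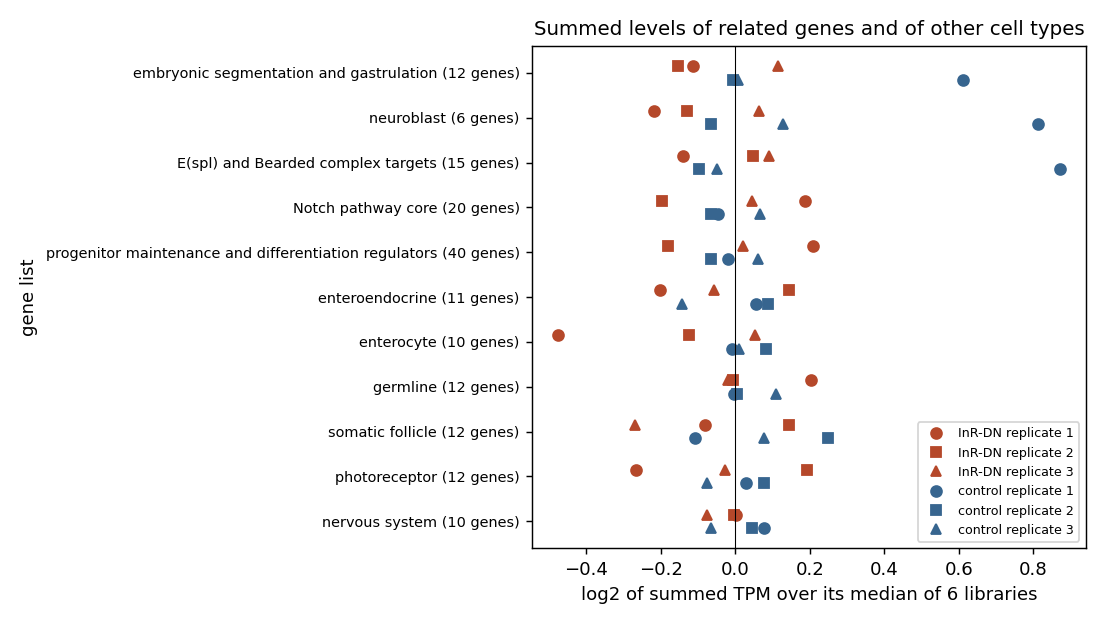
Summed TPM of gene lists in each library, as log2 over the median of the 6 libraries, with InR-DN libraries drawn above controls in each row. Control replicate 1 lies far to the right for the E(spl) and Bearded genes (93.9 TPM), the neuroblast genes (15.4 TPM) and the embryonic genes (33.0 TPM), and within or close to the range of the other libraries for the other lists. The embryonic list was chosen after values were seen.

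Relatives and partners of the progenitor genes gave no calls. Of 9 Snail and Sox relatives 6 were tested, with 3 positive and 3 negative log2 fold changes. Sox102F averaged 16.1 ± 2.85 TPM in InR-DN libraries and 13.4 ± 0.598 TPM in controls (SD, n = 3 each), SoxN 2.98 ± 0.396 TPM in InR-DN libraries and 3.48 ± 0.645 TPM in controls, and Sox14 21.2 ± 1.39 TPM in InR-DN libraries and 20.4 ± 1.67 TPM in controls. All 13 genes of asymmetric division that work with or like mira were tested, with 6 positive and 7 negative log2 fold changes (median -0.01). insc, which orients the division, averaged 19.0 ± 0.479 TPM in InR-DN libraries and 20.3 ± 1.28 TPM in controls. pros, a cargo of Miranda and a marker of enteroendocrine cells, averaged 3.75 ± 0.567 TPM in InR-DN libraries and 4.30 ± 0.490 TPM in controls. The polarity genes par-6 and l(2)gl, the most abundant of that list, had log2 fold changes of 0.04 and 0.12.

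Of 40 regulators of progenitor maintenance, division and differentiation, 37 were tested, with 21 positive and 16 negative log2 fold changes, none called and a median of 0.00. ptc, the Hedgehog receptor, averaged 3.63 ± 0.671 TPM in InR-DN libraries and 4.73 ± 1.33 TPM in controls, of which control replicate 1 had 6.26 TPM. emc, an antagonist of proneural factors, averaged 100.8 ± 6.15 TPM in InR-DN libraries and 110 ± 9.59 TPM in controls. The mitotic genes polo and stg were the most abundant and followed the pattern of Dl: stg had 261, 149 and 208 TPM in InR-DN replicates 1 to 3, against 179, 162 and 216 TPM in control replicates 1 to 3. Of the 37 genes, 16 were highest in InR-DN replicate 1 and lowest in InR-DN replicate 2, against 27.1% of all tested genes. Of the 11 tested germline genes, 5 had the same pattern, beside the same 27.1% of all tested genes. Among these 5, nos had 190.2, 114.9 and 142 TPM in InR-DN replicates 1 to 3. In control replicates 1 to 3 it had 131, 155 and 162 TPM. The most abundant germline gene, osk, did not have the pattern and was lowest in control replicate 2, at 751 TPM. The germline sum was lowest in InR-DN replicate 3, at 1552 TPM. The part of germline RNA in the level of Dl, hdc or Sox21a was not tested.

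Marker genes of enteroendocrine cells and enterocytes, the cells that the progenitors give rise to, gave no calls. In these mixed libraries their RNA cannot be assigned to the gut alone. Of 11 enteroendocrine genes 3 had positive and 8 negative log2 fold changes, with a median of -0.07. CCHa1, which encodes a peptide hormone, averaged 11.4 ± 1.51 TPM in InR-DN libraries and 14.4 ± 1.70 TPM in controls. It was the 1 gene of the 11 with an unadjusted p under 0.05 (limma adjusted p = 1.00), against 3.15% of all tested genes. AstC, another peptide hormone gene, averaged 42.8 ± 3.97 TPM in InR-DN libraries and 49.4 ± 5.54 TPM in controls. CCHa2 went the other way, at 49.0 ± 19.3 TPM in InR-DN libraries, with 71.1 TPM in InR-DN replicate 2, and 40.6 ± 1.84 TPM in controls. Of 10 enterocyte genes 3 had positive and 7 negative log2 fold changes, with a median of -0.02, and the trypsin gene alphaTry averaged 5891 ± 976 TPM in InR-DN libraries and 6927 ± 534 TPM in controls.

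The lists of other cell types gave no calls. All 12 photoreceptor genes had negative log2 fold changes on the log2(TPM + 1) scale. Their median was -0.07, but leaving out InR-DN replicate 1 gave 0.035, and leaving out InR-DN replicate 2 gave -0.20. The rhodopsin gene ninaE averaged 2625 ± 383 TPM in InR-DN libraries and 2648 ± 170 TPM in controls. Of 10 nervous system genes 2 had positive and 8 negative log2 fold changes, and the 3 tested of 6 neuroblast genes had negative ones. Among the neuroblast genes, cas had 1.503, 1.53 and 2.18 TPM in InR-DN replicates 1 to 3, against 4.68, 1.44 and 1.62 TPM in control replicates 1 to 3. Log2 fold changes were positive for 7 of 11 tested germline genes, 5 of 12 follicle cell genes, 6 of 8 hemocyte genes, 3 of 9 visceral muscle genes and 3 of 4 tested genes of sensory organs. The yolk protein gene Yp1, of the follicle cell list, averaged 7213 ± 1169 TPM in InR-DN libraries and 8461 ± 957 TPM in controls. Yp3 of the same list averaged 3386 ± 347 TPM in InR-DN libraries and 3260 ± 178 TPM in controls.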

How the data were processed

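Per the file headers, the values are TPM. The authors deposited them as 1 table of 15010 genes by 6 libraries, whose columns each total 1000000. The submitters' processing notes name TopHat and edgeR, with neither versions nor roles. The genome build, gene models and counting tool of the authors are unknown here. Extraction used Trizol or Tripure, per the labels' protocols. Table columns were tied to libraries through the letter and number in their names.

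Symbols were looked up in BDGP6.54 (11527 current, 3442 older, 41 without a match), from which coordinates were taken. With annotated exon lengths, TPM values of 14171 genes (94.7% of those with a length) were whole multiples of 1 read (relative tolerance 1e-06), as were those of all 10 progenitor genes. Lengths were solved for 837 others, whose reads are less certain, and 2 genes were not recovered. Errors computed from reads cover counting only. Replicates differed by more than read sampling allows in every pair (chi-square per degree of freedom of at least 21.4).

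limma 3.58.1 in R 4.3.3 was fitted with an intensity trend to log2(TPM + 1) of 10816 genes, with group as its only term, and was tested on simulated data. Fold changes are InR-DN over control on that scale, which understates changes of low genes. Python 3.11.15 gave the counts, ratios and figures.

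The progenitor genes and gene lists were chosen with earlier results of these data known. Genes named from the other lists are among the 2 with the smallest unadjusted p and the 2 most abundant of each list. The 3 most like esg were named by profile distance. The lists cover the Notch pathway and its targets, relatives, partners and regulators of the progenitor genes, and markers of gut, muscle, eye, nerve, neuroblast, germline, follicle, hemocyte and sensory organ cells. The embryonic list was added after values were seen.

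Other settings tried were a pseudocount of 0.1 or 5, filtering at 5 TPM or not at all, rescaling by median of ratios or by quantiles, a variance model that was robust or had no trend, voom on recovered reads, the replicate number as a block, and omission of each library.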

Additional observations from a re-analysis of the deposited data

How the results depend on the processing

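Over the 16 alternatives, esg, N and Sox100B kept a negative log2 fold change in each of 16 fits and mira, klu and zfh2 in each of the 15 that tested them, and no progenitor gene was called in any. A change of only the filter, the variance model or the replicate block leaves the log2 fold change itself as it was. In those fits the sign was therefore fixed in advance, and its keeping there is no sign of stability. The signs of Dl, Sox21a and hdc changed. Quantile normalization gave 0.007 for Sox21a and -0.008 for hdc, and voom gave -0.001 for hdc. Leaving out 1 library gave log2 fold changes of -0.057 to 0.29 for Dl, -0.20 to 0.15 for Sox21a and -0.15 to 0.15 for hdc. The sign of Dl changed without InR-DN replicate 1, that of Sox21a without InR-DN replicate 2 (0.15) or control replicate 1 (0.055), and that of hdc without InR-DN replicate 1 (-0.15), control replicate 1 (-0.024) or control replicate 2 (-0.021). The same range was -0.31 to -0.10 for esg, -0.49 to -0.23 for mira, -0.21 to -0.02 for klu and -0.30 to -0.08 for zfh2, each nearest to 0 without control replicate 1. mira had an unadjusted p under 0.05 in 3 fits, at 0.0439 with eBayes without trend, 0.0495 with robust eBayes and 0.0186 without control replicate 3 (limma adjusted p = 0.973 in that fit). spdo was tested only with no filter and with voom (-0.18 and -0.40). Over all genes, 1 was called with a pseudocount of 0.1 and 1 with voom (CG31219 in both), and 0 to 3 when 1 library was left out: 3 without control replicate 2, 1 each without InR-DN replicate 1, InR-DN replicate 3 and control replicate 1, and 0 otherwise. The median log2 fold change ranged from -0.17 to -0.07 for the progenitor genes, -0.55 to -0.01 for the E(spl) and Bearded genes and -0.52 to -0.01 for the neuroblast genes, with the value nearest to 0 without control replicate 1 in each. The Notch pathway, regulator, enterocyte, photoreceptor, germline and sensory organ medians changed sign without InR-DN replicate 1. With the replicate block 0 genes were called, as without it. Same-numbered libraries had residual correlations of -0.41, -0.18 and -0.13, and 0 of 3 InR-DN libraries correlated best with the control of its number. No pairing by number was seen, but so few libraries cannot exclude one, and the labels do not state any. Depth limits spdo most, at 18 to 44 reads per library.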
